A study of Rattus norvegicus with 4 samples.

Results

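Described here are 10 rat genes of the cellular defence against oxidants and metals: the heme oxygenase gene Hmox1, the quinone reductase gene Nqo1, the glutathione genes Gclc, Gclm and Slc7a11, the redox enzyme genes Txnrd1 and Srxn1, the stress gene Osgin1, and the metallothionein genes Mt1 and Mt2A. Each was taken from the probes whose annotation gave that gene symbol and no other, with the probe of the highest mean over the arrays standing for the gene. All 10 were found among 18166 genes with such a probe, and all 10 were among the 11790 genes whose highest value reached 5.83 on the log2 scale, the median of the whole table.

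Gene expression was measured on 4 arrays of primary astrocytes, the supporting glial cells of the brain, from 1 day old Sprague-Dawley pups (cerebral cortex). In the SHP siRNA culture, cells carrying an siRNA against SHP received interferon-γ (IFN-γ, an inflammatory cytokine) and a compound named GW in the labels. In the GW culture, cells carrying a control siRNA received IFN-γ and GW. In the IFN-γ culture, control siRNA cells received IFN-γ alone, and in the untreated culture they received neither. All 4 cultures were thus transfected, all had been kept in serum-free medium for 2 days against microglia and meningeal cells, and treatment lasted 3 h. Each condition has 1 array, so no p-value or replicate error can be given, a difference between conditions cannot be told apart from a difference between single cultures, and the number of arrays limits the precision. GW without IFN-γ and SHP siRNA without GW were not analysed here.

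Nr0b2, the gene of small heterodimer partner (SHP), a nuclear receptor, stood at 3.45 in the SHP siRNA culture, against 5.20, 5.14 and 5.33 in the GW, IFN-γ and untreated cultures. All of these values lie below 5.83, and how far above background they are is unknown. Of 8 measured astrocyte markers all passed the filter, with Gfap between 12.03 and 12.11 and Aqp4 between 11.01 and 12.01, but Sox9 only between 5.92 and 6.18. Markers of other cells passed it as well, 6 of 8 for meningeal cells or fibroblasts, 5 of 6 for oligodendrocytes and 3 of 7 for neurons. Among these, Fn1 (meningeal) lay between 12.04 and 12.13 and Stmn2 (neuron) between 11.68 and 12.04. All 10 microglia markers passed too, and their median level was 8.53, 8.59, 9.10 and 9.37 in the SHP siRNA, GW, IFN-γ and untreated cultures. In such bulk samples fewer cells of a type and less RNA per cell cannot be told apart.

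Nrf2, encoded by Nfe2l2, is the transcription factor that switches on antioxidant genes. The adaptor Keap1 marks it for breakdown until oxidants or electrophiles modify Keap1, after which Nrf2 pairs with a small Maf protein and binds antioxidant response elements, while Bach1 competes for the same elements and is released from them by heme. Metallothioneins are small cysteine-rich proteins that bind zinc and copper, and their genes answer mainly to the zinc-sensing factor Mtf1. In brain, astrocytes hold much of the glutathione and metallothionein and supply neurons with glutathione precursors.

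When GW accompanied IFN-γ, Hmox1 and Mt1 were higher and, by less, Srxn1 and Osgin1, while the glutathione synthesis, thioredoxin reductase and quinone reductase genes differed little or lay lower. Of the 10 genes, 2 were at least 2-fold higher in the GW culture than in the IFN-γ culture, where 0.958% of all 11790 genes were, and 0 were at least 2-fold lower, against 0.95% of all genes. Above 0 lay 6 of the 10, against 42.1% of all genes. Outside the middle 95% of differences, where 5% of all genes lie, were 3 of the 10, Hmox1, Mt1 and Srxn1. The median log2 difference of the 10 was 0.15, beside -0.05 over all genes, and ran up to 0.26 under other scalings and to 0.32 with the other metallothionein probes. IFN-γ alone, compared with no treatment, took none of the 10 past 2-fold (0 higher and 0 lower), against 1.61% of all genes higher and 0.288% lower. SHP siRNA in place of control siRNA in cells given both agents also took none past 2-fold (0 higher and 0 lower), against 0.144% of all genes higher and 0.263% lower.

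**Figure D1:**
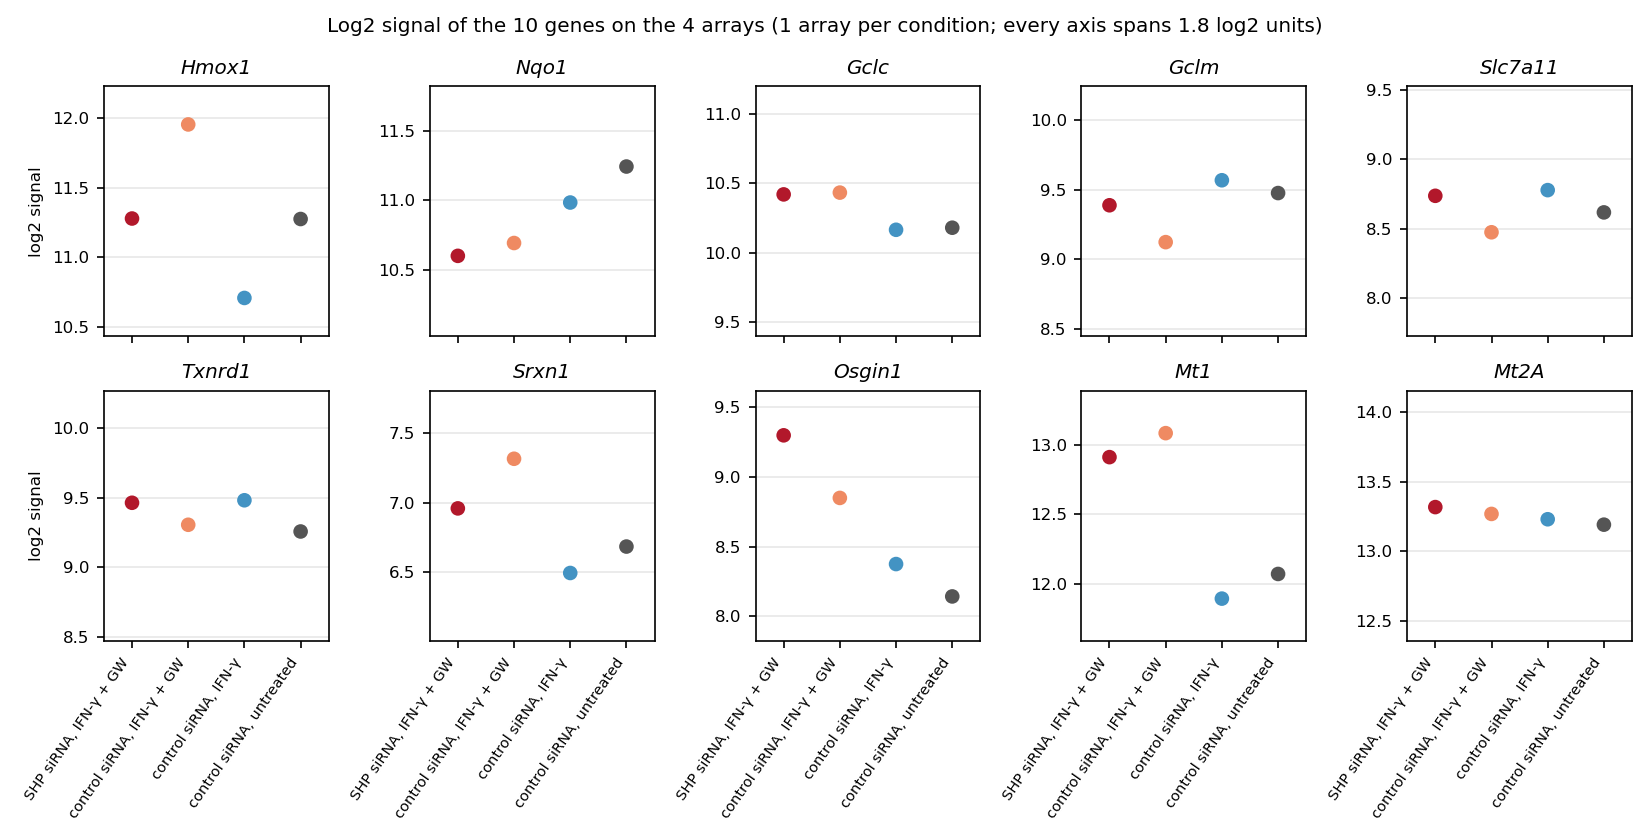
Log2 signal (vertical axes, each spanning the same number of log2 units) of the 10 genes on the 4 arrays (horizontal axes), with 1 point per array. Hmox1 is highest in the GW culture at 11.96 and lowest in the IFN-γ culture at 10.71, Mt1 is high in both cultures with GW, and Mt2A lies between 13.19 and 13.32 throughout.

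Hmox1 encodes the inducible heme oxygenase, which breaks heme down to biliverdin, carbon monoxide and iron. Its log2 signal was 11.28 in the SHP siRNA culture, 11.96 in the GW culture, 10.71 in the IFN-γ culture and 11.28 in the untreated culture. The GW culture was thus highest and the IFN-γ culture lowest, and the SHP siRNA and untreated cultures differed by less than 0.01. With IFN-γ it was 1.48-fold lower than without (log2 difference -0.57, rank 200 from the lowest of 11790 genes). With GW added it was 2.37-fold higher than with IFN-γ alone (1.25, rank 76 from the highest). With SHP siRNA it was 1.60-fold lower than with control siRNA (-0.68, rank 91 from the lowest). Hmox1 was the 1 member outside the middle 95% of all genes in each of the 3 comparisons. These comparisons share arrays: the IFN-γ array enters the IFN-γ and GW differences with opposite signs, and the GW array the GW and SHP siRNA differences. Against the untreated culture, which leaves out the IFN-γ array, Hmox1 in the GW culture was 1.60-fold higher, inside the middle 95%.

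Genes of heme and iron handling did not share the higher Hmox1 with GW. Of 17 such genes past the filter, 0 lay above 0 and 17 below, with a median of -0.27, where 57.8% of all genes lay below 0. The constitutive heme oxygenase gene Hmox2 stood at 6.98 in the GW culture, against 7.78 in the IFN-γ culture (-0.80). Biliverdin, the product of heme oxygenase, is reduced by the enzymes of Blvra (-0.44) and Blvrb (-0.11), and the freed iron is stored by the ferritin subunits of Fth1 (-0.06) and Ftl1 (-0.18). None of the 17 reached 2-fold in any of the 3 comparisons (0 higher and 0 lower). Over all genes 1.9%, 1.91% and 0.407% did so in either direction with IFN-γ, GW and SHP siRNA. The count below 0 holds for the deposited values. Median centring raised the differences with GW by 0.08, so genes as near to 0 as Fth1 would then lie above it.

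Mt1 encodes one of the main metallothioneins of glia. Its signal was 12.91 in the SHP siRNA culture, 13.08 in the GW culture, 11.89 in the IFN-γ culture and 12.07 in the untreated culture. Both cultures that received GW were higher than both that did not. Mt1 was 2.28-fold higher in the GW culture than in the IFN-γ culture (1.19, rank 84 from the highest), and 1.13-fold lower with IFN-γ than without (-0.18). It was 1.13-fold lower with SHP siRNA than with control siRNA (-0.17), inside the middle 95%. Against the untreated culture it was 2.02-fold higher in the GW culture (1.01, where 1.65% of all genes reached 2-fold higher) and 1.79-fold higher in the SHP siRNA culture (0.84). The SHP siRNA culture stood 2.02-fold above the IFN-γ culture, where 0.45% of all genes were at least 2-fold higher.

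Mt2A, the neighbouring gene in the rat annotation, encodes the other widely expressed metallothionein. Its signal was 13.32, 13.27, 13.23 and 13.19 in the SHP siRNA, GW, IFN-γ and untreated cultures. These values span 0.13, and they lie close to 13.41, the highest value of the whole table. Whether probes were saturated there was not tested. Each metallothionein gene also has another probe, with lower values. For Mt2A it read 11.65, 11.86, 11.49 and 11.47 in the same order of cultures, 0.37 higher in the GW culture than in the IFN-γ culture. For Mt1 it read 8.90, 9.29, 7.32 and 7.76, and was 3.92-fold higher with GW (1.97) and 1.53 above the untreated culture. On this probe the difference of Mt1 with GW was 0.78 larger than on the brighter one, that with IFN-γ was -0.44 and that with SHP siRNA -0.38. The brighter Mt1 probe, at 13.08 in the GW culture, also lies near the top of the table. Transcripts of near-identical metallothionein copies may reach the same probes, which was not tested. The zinc list around this pair, which holds zinc transporters, Mt3, Mt4 and Mtf1, had 5 of 14 genes above 0 with GW, beside 42.1% of all genes. Its median was -0.09, with none past 2-fold (0 higher and 0 lower), against 0.958% of all genes higher and 0.95% lower. The zinc exporter gene Slc30a1, a known Mtf1 target in mouse, stood at 9.02, 8.87, 8.40 and 8.38 in the 4 cultures, 0.47 higher in the GW culture than in the IFN-γ culture. Mtf1 itself lay between 9.34 and 9.41 in the 4 cultures.

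**Figure D2:**
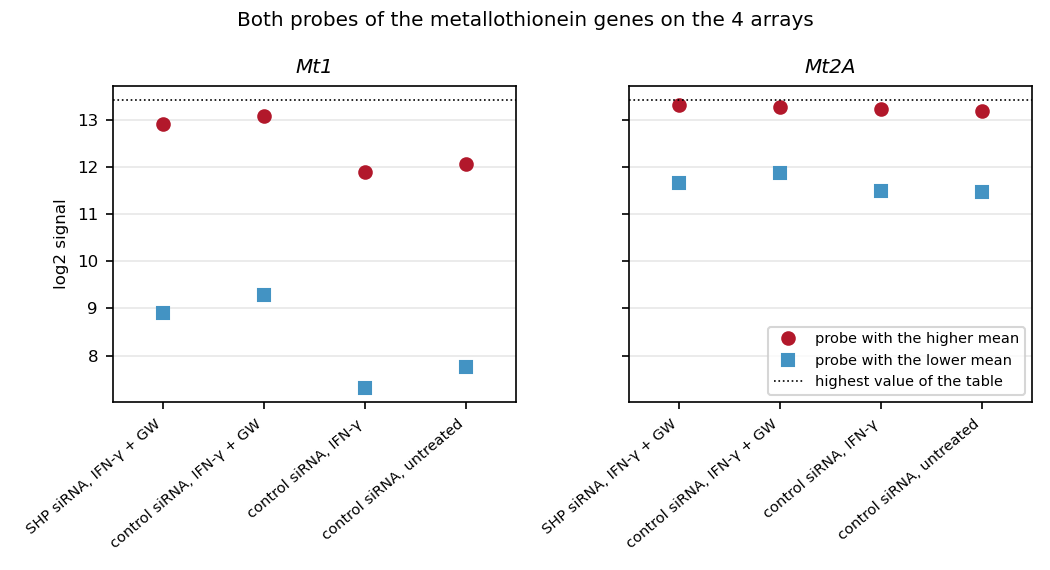
Log2 signal (vertical axis) of both probes of Mt1 (left) and of Mt2A (right) on the 4 arrays (horizontal axis), with 1 point per probe and array and a dotted line at 13.41, the highest value of the table. Both Mt1 probes are higher in the cultures with GW, and the brighter Mt2A probe lies just under the dotted line on every array.

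The upstream sequences of the metallothionein pair are shown because the cores of metal response elements, the sites bound by Mtf1, lie close together in them. The promoter table used here, from RefSeq for rat assembly GRCr8, has entries for 9 of the 10 genes, Hmox1 being the one without. In the 250 bases before the annotated start, both strands were searched for metal response element cores (TGCACNC or TGCGCNC), the antioxidant response element core (TGACNNNGC) and the AP-1 site (TGANTCA). The AP-1 site can overlap the antioxidant core. Capitals mark every match, and a match is a description of the letters and not a bound site. The Mt1 sequence lies at chr19:10832976-10833225 and the Mt2A sequence at chr19:10838709-10838958, both on the minus strand and written 5′ to 3′.
Mt1: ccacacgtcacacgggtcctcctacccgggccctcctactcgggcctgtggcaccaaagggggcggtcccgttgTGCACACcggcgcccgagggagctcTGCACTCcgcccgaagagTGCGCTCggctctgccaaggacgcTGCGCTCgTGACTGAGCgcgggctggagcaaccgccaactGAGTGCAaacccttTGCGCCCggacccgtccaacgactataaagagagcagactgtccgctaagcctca
Mt2A: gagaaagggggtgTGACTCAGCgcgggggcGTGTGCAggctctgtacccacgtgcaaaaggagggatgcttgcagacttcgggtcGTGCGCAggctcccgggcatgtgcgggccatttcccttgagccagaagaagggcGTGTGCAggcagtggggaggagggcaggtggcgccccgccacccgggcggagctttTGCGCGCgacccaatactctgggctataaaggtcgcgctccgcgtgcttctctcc
Mt1 has 6 metal response element cores, 176 to 55 bases before the start, and 1 antioxidant core (TGACTGAGC) 101 bases before it. Mt2A has 4 metal cores and 1 antioxidant core (TGACTCAGC), 237 bases before the start, which overlaps an AP-1 site. Of 33469 promoters in the table, 20.6% hold at least 1 metal core of either form, 0.266% hold at least 4 and 0.0269% at least 6. The antioxidant core occurs in 10.1% of them and the AP-1 site in 6.34%. Metal cores are not confined to this pair among the members, as Gclm has 2 and Osgin1 has 1.

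Srxn1 encodes sulfiredoxin, which restores peroxiredoxins that peroxide has overoxidised. Its signal was 6.96 in the SHP siRNA culture, 7.32 in the GW culture, 6.50 in the IFN-γ culture and 6.69 in the untreated culture. As for Hmox1, the GW culture was highest and the IFN-γ culture lowest, while for Srxn1 the SHP siRNA culture lay 0.27 above the untreated culture. Srxn1 was 1.77-fold higher in the GW culture than in the IFN-γ culture (0.82, rank 165 from the highest), short of 2-fold but outside the middle 95%. With SHP siRNA it was 1.28-fold lower than with control siRNA (-0.36), and with IFN-γ 1.14-fold lower than without (-0.19). Its upstream sequence, at chr3:161064562-161064811 on the plus strand, is shown because Srxn1 is the third member higher with GW, and it carries an AP-1 site 62 bases before the start but no antioxidant core of the searched form.
Srxn1: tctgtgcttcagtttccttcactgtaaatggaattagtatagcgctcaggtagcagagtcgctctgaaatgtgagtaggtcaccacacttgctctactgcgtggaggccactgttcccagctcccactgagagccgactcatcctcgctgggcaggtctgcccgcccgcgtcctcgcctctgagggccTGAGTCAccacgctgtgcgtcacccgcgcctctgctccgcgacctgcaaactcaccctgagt
Among the other members with a promoter entry, the antioxidant core occurs in Gclm (TGACTAAGC, 172 bases before the start) and in 1 of the 2 Txnrd1 promoters (TGACAAAGC, 78 bases before it). These core matches were found in Gclm and Txnrd1, which did not reach 2-fold in any comparison. They were also found in Mt1, which did with GW, and in Mt2A, which did not. Hmox1 has no promoter entry, and bases farther upstream were not searched for any gene. Whether the matches have a part in the differences was not tested.

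Txnrd1 encodes the cytosolic thioredoxin reductase, which keeps thioredoxin reduced. Its signal was 9.46, 9.31, 9.48 and 9.26 in the SHP siRNA, GW, IFN-γ and untreated cultures, a span of 0.22. It was 0.22 higher with IFN-γ than without, 0.18 lower with GW added, and 0.16 higher with SHP siRNA than with control siRNA, all inside the middle 95%. Of 15 thioredoxin, peroxiredoxin and antioxidant enzyme genes, 14 lay below 0 with GW, where 57.8% of all genes did, and Txnrd2 above it (0.07). Their median was -0.34, and none passed 2-fold (0 higher and 0 lower), against 0.958% of all genes higher and 0.95% lower. Among them Prdx1, a peroxiredoxin that Nrf2 controls, stood at 9.73 in the GW culture against 10.33 in the IFN-γ culture (-0.61), and Txnip, the thioredoxin inhibitor gene, at 9.78 against 10.66 (-0.88, outside the middle 95%).

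The glutathione genes differed by less than 0.5 in each of the 3 comparisons. Gclc encodes the catalytic subunit of glutamate-cysteine ligase, the rate-limiting enzyme of glutathione synthesis. It read 10.42, 10.43, 10.16 and 10.18 in the SHP siRNA, GW, IFN-γ and untreated cultures, so both cultures with GW were 0.24 to 0.27 above both without. Gclm, the modifier subunit of the same enzyme, read 9.39, 9.12, 9.57 and 9.48. It was lowest in the GW culture, 0.44 below the IFN-γ culture, and 0.27 higher with SHP siRNA than with control siRNA. Slc7a11, the cystine importer that feeds glutathione synthesis, read 8.74, 8.48, 8.78 and 8.62 in the same order. It too was lowest in the GW culture (-0.30 against IFN-γ alone) and was 0.26 higher with SHP siRNA. The subunits of 1 enzyme, Gclc and Gclm, therefore lay on opposite sides of 0 with GW, each inside the middle 95%.

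Of 19 other genes of glutathione and cysteine metabolism, 15 lay below 0 with GW, where 57.8% of all genes did, with a median of -0.17. The exception in size was Chac1, whose enzyme breaks glutathione down and which is a known target of the integrated stress response. It stood at 11.04 in the GW culture against 8.90 in the IFN-γ culture, 4.41-fold higher, and at 10.13 with SHP siRNA (-0.91 against control siRNA). Slc3a2, the partner chain of the cystine importer, was 0.31 higher with GW.

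Nqo1 encodes the quinone reductase that is among the most used readouts of Nrf2. Its signal was 10.60 in the SHP siRNA culture, 10.69 in the GW culture, 10.98 in the IFN-γ culture and 11.24 in the untreated culture. The untreated culture was highest, and each of the 3 main differences was below 0, at -0.26 with IFN-γ, -0.29 with GW and -0.09 with SHP siRNA. None lay outside the middle 95% of all genes, and Nqo1 in the GW culture was 1.46-fold lower than in the untreated culture.

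Osgin1, an oxidative stress-induced growth inhibitor, was highest in the SHP siRNA culture and lowest in the untreated culture. Its signal was 9.30 in the SHP siRNA culture, 8.85 in the GW culture, 8.37 in the IFN-γ culture and 8.14 in the untreated culture. It was 0.23 higher with IFN-γ than without, 0.48 higher with GW added and 0.45 higher with SHP siRNA than with control siRNA. Each step stayed inside the middle 95%, and the SHP siRNA culture was 2.23-fold higher than the untreated culture (1.16, rank 150 from the highest, where 1.59% of all genes were at least 2-fold higher). Hmox1 and Osgin1 thus differed in opposite directions with IFN-γ and with SHP siRNA, and in the same direction with GW.

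**Figure D3:**
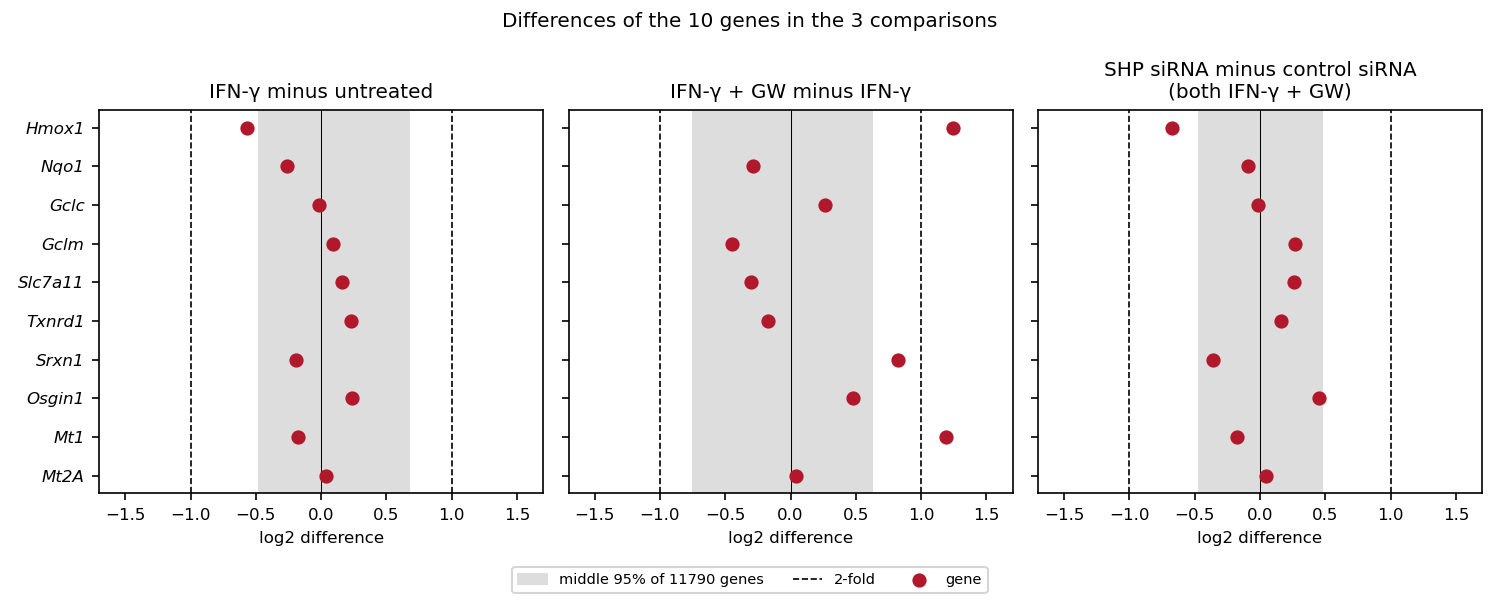
Log2 differences (horizontal axes) of the 10 genes (vertical axis) for IFN-γ minus untreated, IFN-γ with GW minus IFN-γ, and SHP siRNA minus control siRNA, with the middle 95% of 11790 genes in grey and dashed lines at 2-fold. Hmox1 lies outside the grey band in all 3 panels, Mt1 and Srxn1 in the GW panel, and the other genes lie inside it.

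In the IFN-γ comparison 5 of the 10 lay above 0, beside 40.1% of all genes, with a median of 0.01 beside -0.04 over all genes. The members ran from -0.57 (Hmox1, the 1 member outside the middle 95%) to 0.23 (Osgin1). In the SHP siRNA comparison 5 of the 10 lay above 0, beside 51.5% of all genes. The median was 0.02 beside 0.01, and the members ran from -0.68 (Hmox1, again the 1 member outside the middle 95%) to 0.45 (Osgin1). The sign of this median turned after quantile normalization (-0.03) and cyclic loess (-0.03).

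Most other Nrf2 target genes lay below 0 with GW, as did Nqo1, Gclm, Slc7a11 and Txnrd1 among the 10. Of 22 past the filter, 21 lay below 0, where 57.8% of all genes did, with a median of -0.34. At least 2-fold lower was 1 of them and at least 2-fold higher 0, against 0.95% and 0.958% of all genes. Tkt (-0.01), Sqstm1 (-0.03) and Gsr (0.03, the 1 above 0) lay nearest to 0. The difference between this list and the 10 genes was not tested. The lists share genes, so their counts are not separate results. Blvrb, Fth1 and Ftl1 are also among the heme and iron genes. Prdx1 is also in the thioredoxin list and Gsr in the glutathione list, among others. Gsta4 and Gstp1, glutathione transferase genes, stood at 7.76 and 8.81 in the GW culture, against 8.66 and 9.56 in the IFN-γ culture. Abcc4, an exporter of organic anions, stood at 8.47 against 9.37, and Me1, the cytosolic malic enzyme that makes NADPH, at 8.73 against 9.34. Akr1b8, an aldo-keto reductase gene, was the member at least 2-fold lower, at 5.03 in the GW culture against 6.31 in the IFN-γ culture (-1.28). With SHP siRNA Akr1b8 read 6.14, 2.17-fold above control siRNA (1.12), though its GW value lies below 5.83, so both sizes are uncertain. With IFN-γ alone 16 of the 22 lay below 0, beside 59.8% of all genes, with a median of -0.08. None passed 2-fold (0 higher and 0 lower), against 1.61% of all genes higher and 0.288% lower. With SHP siRNA 15 lay above 0, beside 51.5% of all genes, with a median of 0.04.

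**Figure D4:**
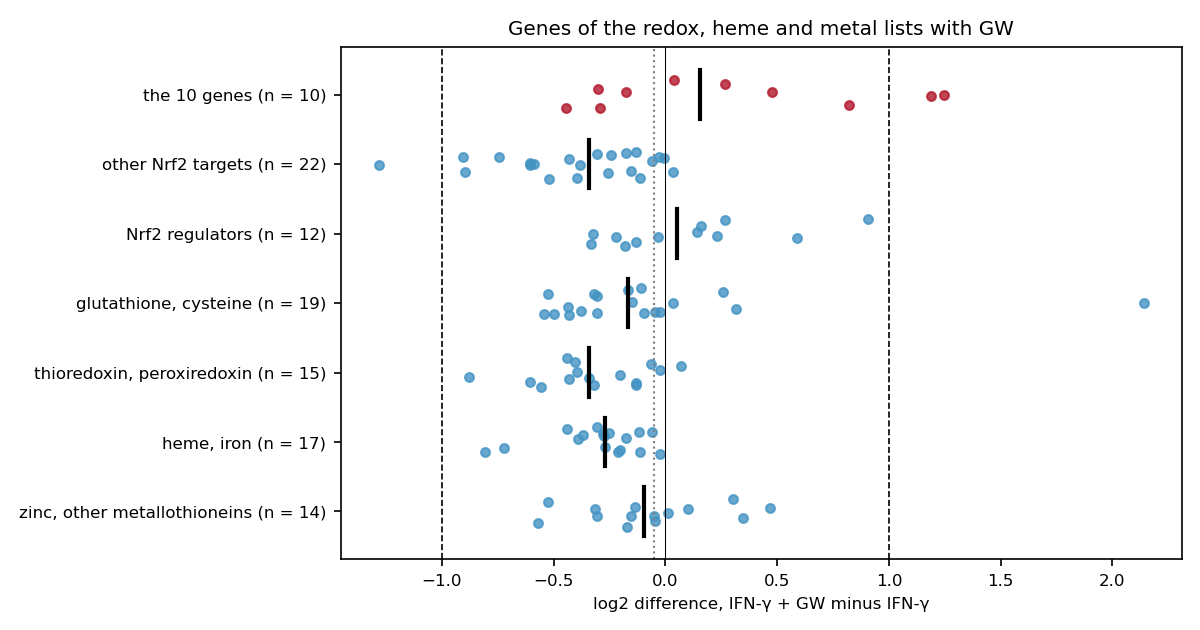
Log2 difference, IFN-γ with GW minus IFN-γ (horizontal axis), of single genes (points) in the 10 genes and 6 lists around them (vertical axis), with the list median as a black bar, 2-fold as dashed lines and the median of all genes as a dotted line. The 10 genes spread to both sides of 0. In the deposited values 21 of 22 other Nrf2 targets and all 17 heme and iron genes lie below 0, and some genes are in both of these lists. The point farthest right is Chac1 at 2.14.

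Among the regulators, the transcript of Nrf2 itself differed little. Nfe2l2 read 11.99, 11.91, 12.13 and 12.01 in the SHP siRNA, GW, IFN-γ and untreated cultures, and Keap1 read 8.63, 8.67, 8.80 and 8.99. Bach1, the repressor of Hmox1, read 8.95, 8.72, 8.90 and 8.41, so it was 0.49 higher with IFN-γ than without. The small Maf genes encode partners of both Nrf2 and Bach1. Maff stood at 9.22, 9.09 and 8.95 in the SHP siRNA, GW and IFN-γ cultures, against 6.14 in the untreated culture, 7.05-fold higher with IFN-γ than without. Mafk read 8.59, 8.66, 8.07 and 7.61 and Mafg 7.93, 7.82, 7.55 and 7.27 in the 4 cultures, both higher in all 3 treated cultures than in the untreated one. Maff was the 1 of 12 regulators past 2-fold with IFN-γ, where 1.9% of all genes passed it in either direction. With GW and with SHP siRNA 0 of 12 passed it, against 1.91% and 0.407% of all genes. The regulator that differed most with GW was Bach2, a relative of Bach1, at 7.50 in the GW culture against 6.60 in the IFN-γ culture (0.90, outside the middle 95%). The Nrf2 protein, which is where much of the regulation lies, was not measured.

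Markers of microglia, which also express Hmox1, had a median below 0 with IFN-γ and with GW and above 0 with SHP siRNA. With IFN-γ 9 of 10 markers lay below 0, beside 59.8% of all genes, with a median of -0.44. Cx3cr1 was the 1 past 2-fold at -1.23, where 0.288% of all genes were at least 2-fold lower. With GW 9 of 10 again lay below 0, beside 57.8% of all genes, with a median of -0.44. Tyrobp (-1.22) and Ptprc (-1.16) passed 2-fold, where 0.95% of all genes were at least 2-fold lower, while Cx3cr1 was 0.68 higher. With SHP siRNA 8 of 10 lay above 0, beside 51.5% of all genes, with a median of 0.18. In that comparison 5 of 6 meningeal or fibroblast markers past the filter also lay above 0, with a median of 0.46 (Pdgfra 0.72 and Col3a1 0.71), and 6 of 8 astrocyte markers, with a median of 0.22. The part of these cells in the values above was not tested. The lowest value of the list was 6.63, for P2ry12 in the GW culture, and with no detection call none was counted as absent.

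The genes with the most alike profiles were found by the Euclidean distance between log2 values over the 4 arrays, each gene centred on its own mean, for the 3 members whose values spanned at least 1 log2 unit. Only genes past the filter were searched, and members and provisional symbols (LOC, RGD) were left out, so a nearer gene with such a symbol would not be named. For Hmox1 they were Ajuba (distance 0.22), Tob1 (0.23) and Hspe1 (0.23), all 3 lower with IFN-γ, higher with GW and lower with SHP siRNA. Srxn1, at 0.36, was the member nearest to Hmox1. For Mt1 they were Gem (0.09), Ahsa2 (0.10) and Id3 (0.14), which were 1.16, 1.21 and 1.20 higher with GW. For Osgin1 they were Smad7 (0.13), Fam227a (0.14) and Or8h7b (0.17). All of these genes were chosen by the same 4 values, so their shared directions and sizes follow from the choice and are not a separate result. With 4 arrays many genes can have like profiles, and the distances describe these arrays only.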

How the data were processed

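RNA from 4 cultures was hybridised as biotin-labelled sense cDNA to 1 single-colour array each, per the labels' protocols. The deposited values, 1 for each probe on each array, were read here as log2 signal because the values run from 1.14 to 13.4; neither log base nor unit is stated. How the authors corrected background, summarised probes and normalized is not given in the sources used here. No detection call was used.

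Of 29489 probes, 18511 have 1 gene symbol in the platform annotation, 575 several and 10403 none. Of the 18511, 18394 were updated through the RefSeq gene table of GRCr8. The brightest probe stood for a gene. Genes whose highest value reached the table median of 5.83 were kept. Differences are of log2 values between 2 arrays, called at 2-fold, with no test because each condition has 1 array. The members and the lists were chosen with earlier results of these data known.

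Genes named are the members, Nr0b2, list members past 2-fold (up to 4 for each list and comparison), Nfe2l2, Keap1, Bach1, Mtf1 and the small Maf genes, and the 3 most alike genes of each member spanning at least 1 log2 unit. Gsr, Gsta4, Gstp1, Abcc4, Me1, Prdx1, Txnip, Hmox2, Blvra, Blvrb, Fth1, Ftl1, Slc3a2, Slc30a1, Gfap, Aqp4, Sox9, Fn1, Stmn2, P2ry12, Pdgfra, Col3a1, Txnrd2, Tkt, Sqstm1 and Bach2, with Tfrc, Slc40a1 and Slc39a14 in the closing section, were named after their values were seen. Alternatives were quantile normalization, median centring, cyclic loess, the mean of a gene's probes, no filter, a filter on the mean, 1.5-fold and 3-fold thresholds, list means and, chosen after seeing the data, the other metallothionein probes. Steps were tested on simulated data. Python 3.11.15 was used, with limma 3.58.1 in R 4.3.3 for quantile normalization and cyclic loess.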

Additional observations from a re-analysis of the deposited data

How the results depend on the processing

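With 1 array per condition, no replicate could be left out. No paired analysis was possible because each condition has 1 array. The planned pseudocount applied to linear values only and was not run. Hmox1 with GW stayed between 1.25 and 1.36 and Mt1 between 1.24 and 1.58 under the 3 other scalings and the mean of probes, so both stayed past 2-fold; on the other Mt1 probe the value was 1.97. At 1.5-fold 1 member was lower with SHP siRNA (Hmox1), and at 3-fold 0 members were higher with GW. Over all genes 1.5-fold gave 356 higher and 187 lower with IFN-γ, 332 and 586 with GW, and 168 and 142 with SHP siRNA. At 3-fold the counts were 80 and 2, 50 and 26, and 1 and 4 in the same order. Without the filter 27 were higher and 48 lower with SHP siRNA. The median of the members with GW was 0.24 after median centring and also with the mean of probes, 0.26 after cyclic loess, 0.28 as a mean and 0.32 with the other metallothionein probes. The thioredoxin list with GW was -0.24 after cyclic loess, and the mean of the regulators with IFN-γ was 0.30, a list that holds Maff. Signs turned for Gclc with IFN-γ (0.02 after cyclic loess) and with SHP siRNA (0.003 after quantile normalization), and for Mt2A with SHP siRNA, at -0.07 after quantile normalization, -0.01 after cyclic loess, -0.08 as the mean of probes and -0.21 on the other probe. Medians near 0 also turned. For the members these were -0.05 as a mean with IFN-γ, and with SHP siRNA -0.05 with the mean of probes, -0.01 as a mean and -0.05 with the other metallothionein probes. After cyclic loess the other Nrf2 targets and the thioredoxin list turned with SHP siRNA (-0.01 and -0.02) and the zinc list with IFN-γ (0.01, and 0.07 as a mean). Counts of list genes above and below 0 were made on the deposited values only. Median centring raised the differences with GW by 0.08, so Fth1 (-0.06), Sqstm1 (-0.03) and Tkt (-0.01) would then lie above 0. The causes of these shifts were not tested. The 1-array design and the unstated background limit what low values and small differences show.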

Other observations

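Genes that import and export iron, which heme oxygenase frees, lay on opposite sides of 0 with SHP siRNA. The transferrin receptor gene Tfrc, which takes iron up, read 8.49 in the SHP siRNA culture against 7.49 in the GW culture, just short of 2-fold at 1.998. It read 8.21 and 8.07 in the IFN-γ and untreated cultures, so the GW culture was lowest (-0.72 against IFN-γ alone). The iron exporter gene Slc40a1 (ferroportin) read 6.55 against 7.23 in the same cultures (-0.68), and 7.50 and 7.97 in the IFN-γ and untreated cultures, so the untreated culture was highest. The zinc importer gene Slc39a14 stood at 8.55 in the IFN-γ culture against 7.55 in the untreated culture, just short of 2-fold at 1.996. These 3 genes were picked after their values were seen, and each value comes from 1 array.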
